A study of Mus musculus with 32 samples.

Results

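Acta1, Xirp1, Xirp2, Ankrd1, Ankrd2, Sprr1a, Csrp3 and Nrap are 8 genes that heart muscle cells are known to turn up under mechanical load or injury, or whose proteins sit where force passes through those cells. They were chosen by name, with earlier results of these hearts in view, and all 8 were among the 27532 genes tested. Each was read by the array probes that carry its name, which gave 9 probes (2 for Nrap, 1 for each other gene), and all 9 were well above background on all 32 arrays. The natriuretic peptides Nppa and Nppb and the slow myosin Myh7, other known genes of the loaded heart, were followed beside them.

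RNA came from heart tissue of 32 individual C57BL/6 mice, with an array for each mouse. Stressed mice sat in a mesh box in the cage of an aggressor for 6 hours a day and were attacked in short bouts, a laboratory model of posttraumatic stress disorder. Control mice sat in mesh boxes in a cage that held no aggressor. The 4 conditions were named by days of exposure (T) and days of rest (R), namely T5R1, T5R10, T10R1 and T10R42, each with its own 4 stressed and 4 control mice. Age, sex and the chambers taken are not given in the sources used here.

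Each level below is the log2 signal of the gene's probe minus the 75th percentile of its array, so that 0 is the 75th percentile of the array's spots. Levels of different probes are not compared. A change is the mean of the 4 stressed hearts minus the mean of the 4 control hearts, with the standard error (SE) of the model fitted over all genes, and 1 unit is a doubling. A gene passed the threshold when its limma p, adjusted by Benjamini and Hochberg's method over all genes tested, was below 0.05. All arrays of 1 condition lay on 1 slide, so a level set between conditions cannot be told apart from the slide, and on each slide the controls filled the first columns and the stressed hearts the last, so array column and stress cannot be told apart.

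Cardiac muscle answers stretch and overload with a set of genes, some of which are otherwise silent or low in the adult heart. Acta1 encodes the skeletal form of alpha-actin, which the fetal heart makes and the loaded adult heart makes again. Ankrd1 and Ankrd2 encode ankyrin repeat proteins that bind the spring region of titin and also enter the nucleus, and Csrp3 encodes the muscle LIM protein of the Z-disc, the plate that anchors actin filaments. Xirp1, Xirp2 and Nrap encode actin-binding proteins of the intercalated disc, the junction between heart muscle cells. Sprr1a is best known as a protein of the skin barrier, and heart muscle cells make it after injury and in answer to cytokines of the interleukin-6 family.

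Promoter sequence is shown for the 4 members whose windows held matches to known binding sequences of muscle or injury factors. The 250 bases before the gene's start are given as the coding strand reads them, from RefSeq on GRCm38.p6, and capitals mark the matches. The windows are chr8:123894776-123895025 (minus strand) for Acta1, chr2:67445752-67446001 (plus strand) for Xirp2, chr3:92485882-92486131 (minus strand) for Sprr1a and chr19:36119845-36120094 (minus strand) for Ankrd1.
Acta1: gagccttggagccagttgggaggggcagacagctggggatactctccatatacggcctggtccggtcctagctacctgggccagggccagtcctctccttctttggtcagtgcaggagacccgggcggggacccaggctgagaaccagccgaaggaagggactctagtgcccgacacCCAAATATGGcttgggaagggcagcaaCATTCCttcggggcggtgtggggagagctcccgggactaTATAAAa
Xirp2: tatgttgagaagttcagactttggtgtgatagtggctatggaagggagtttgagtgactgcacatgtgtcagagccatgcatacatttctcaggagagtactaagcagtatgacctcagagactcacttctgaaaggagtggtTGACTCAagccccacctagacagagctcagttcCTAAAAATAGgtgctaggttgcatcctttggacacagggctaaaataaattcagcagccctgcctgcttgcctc
Sprr1a: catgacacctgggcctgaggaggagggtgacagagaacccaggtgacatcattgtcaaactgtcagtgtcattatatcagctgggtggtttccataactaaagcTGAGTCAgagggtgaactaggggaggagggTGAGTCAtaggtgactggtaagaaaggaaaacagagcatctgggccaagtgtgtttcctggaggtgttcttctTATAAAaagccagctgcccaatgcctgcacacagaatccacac
Ankrd1: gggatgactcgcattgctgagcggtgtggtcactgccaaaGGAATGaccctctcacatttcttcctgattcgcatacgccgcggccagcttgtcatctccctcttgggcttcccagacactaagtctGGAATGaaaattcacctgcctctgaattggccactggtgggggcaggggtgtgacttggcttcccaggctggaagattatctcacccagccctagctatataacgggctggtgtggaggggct

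The motifs searched, on both strands, were the CArG box (bound by serum response factor, SRF), the MEF2 site, the MCAT element CATTCC (bound by TEAD factors), the AP-1 site TGANTCA, the STAT site TTCNNNGAA and the TATA box TATAAA. No 2 matches overlapped in these windows. Promoters were on hand for 7 of the 8 members. The Acta1 window held a CArG box 73 to 64 bases before the start, an MCAT element and a TATA box. Among 32851 promoters of the same length, 1.47% held a CArG box, 12.6% the MCAT letters and 12.4% the TATA letters. In the Xirp2 window lay a MEF2 site, found in 0.508% of promoters, and an AP-1 site, found in 6.75%. That of Sprr1a held 2 AP-1 sites, 146 to 140 and 116 to 110 bases before the start, and a TATA box. Ankrd1 had 2 MCAT elements, both on the opposite strand, so that they read GGAATG. Ankrd2 had a TATA box alone. None of the searched letters occurred in the Csrp3 windows (2 entries) or the Nrap window, and the STAT letters, held by 7.02% of promoters, occurred in none of the members' windows. A match is a run of letters and no measure of binding.

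The condition T5R1, with the shorter exposure and a single day of rest, gave the largest differences. Sprr1a, Acta1, Ankrd2, Xirp2 and Ankrd1 were higher in all 4 stressed hearts than in all 4 control hearts, whereas Xirp1, Csrp3 and Nrap overlapped between the groups. The group was chosen with these differences known, so they are a description with no test. For scale, 6.63% of all genes tested were higher without overlap. The 8 members had a median change of 0.89, against -0.12 over all genes.

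Acta1 stood at 6.53, 6.56, 6.17 and 6.94 in T5R1 stressed hearts, against 4.80, 4.74, 5.05 and 4.64 in T5R1 control hearts. The change was 1.74 ± 0.28, a 3.34-fold higher level, and the lowest stressed heart lay more than 1 unit above the highest control. Its probe lies on mm9 at chr8:126416197-126416256, on the minus strand, and is shown because actin genes resemble each other: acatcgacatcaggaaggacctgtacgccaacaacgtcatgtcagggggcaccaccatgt. The longest run of bases that it shares with any other gene's probe on the array is 13 (LOC100039380). Probes were compared only with probes, not with the RNA of other actin genes, so binding of such RNA was not tested. Actc1, which encodes the cardiac alpha-actin and has a probe of its own, changed by -0.18, -0.09, -0.13 and -0.17 in T5R1, T5R10, T10R1 and T10R42 and did not pass the threshold in any of them.

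Sprr1a was at 3.77, 0.89, -0.47 and -0.55 in T5R1 stressed hearts, against -2.39, -2.33, -1.90 and -2.14 in T5R1 controls. All 4 stressed hearts were above the controls, but they spanned more than 4 units, and stressed replicate 1 was far above the others. The change was 3.10 ± 0.56, an 8.56-fold higher level, and 2.14 without that heart. Its SE draws on the spread in all 8 groups, whereas the SD of Sprr1a in the T5R1 stressed hearts was 2.02. By size of increase Sprr1a was number 10 of all genes tested, and Acta1 was number 124.

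Ankrd2 was at -1.26, -1.90, -1.74 and -1.73 in T5R1 stressed hearts, against -3.21, -2.84, -2.99 and -2.81 in control hearts, a change of 1.30 ± 0.30. With another background correction (normexp, which compresses dim probes) the change was 0.76. Its relative Ankrd1 was at 7.41, 7.20, 6.70 and 7.14 in stressed hearts, against 6.28, 6.51, 6.17 and 6.01 in controls, a change of 0.87 ± 0.23. Both ankyrin repeat genes were thus higher without overlap.

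Of the intercalated disc proteins, only Xirp2 was higher without overlap. Its level was 3.99, 3.82, 3.34 and 3.93 in T5R1 stressed hearts, against 2.69, 2.97, 3.00 and 2.79 in controls, a change of 0.91 ± 0.17. Its relative Xirp1 lay between 2.56 and 2.86 in stressed hearts, against 2.71 to 3.17 in controls (change -0.25 ± 0.28). Nrap lay between 5.46 and 5.79 in stressed hearts, against 5.42 to 5.64 in controls (change 0.05 ± 0.13). The Z-disc gene Csrp3 had the same mean of 7.50 in both groups, with a change of 0.00 ± 0.10 that became 0.15, 0.18 or 0.20 under the scalings that moved the median of all genes nearer to 0.

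**Figure D1:**
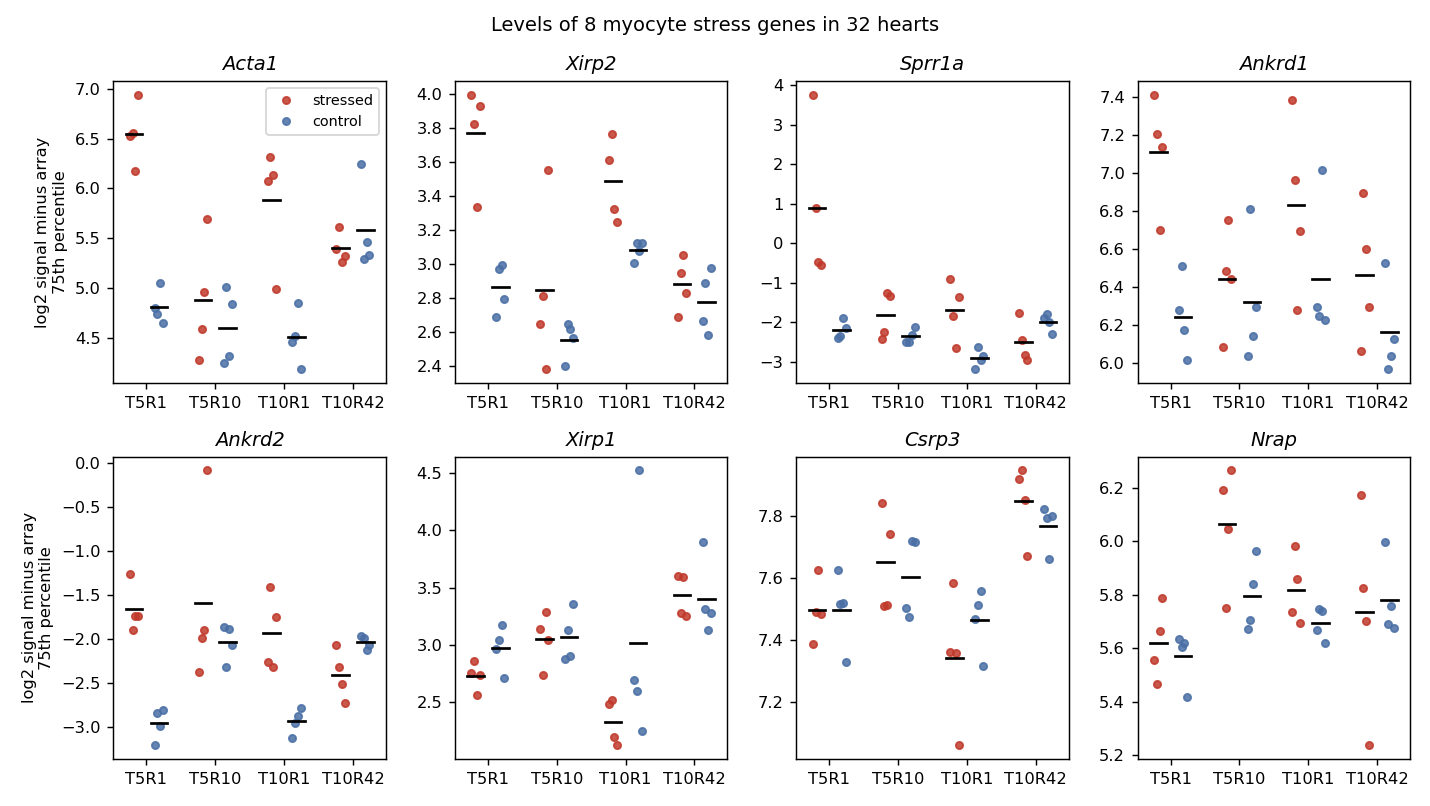
Level of each of the 8 genes in every heart (y axis, log2 signal minus the array's 75th percentile) for the 4 conditions (x axis), with stressed hearts in red to the left of control hearts in blue and a black bar at each mean. In T5R1 the stressed hearts of Acta1, Xirp2, Sprr1a, Ankrd1 and Ankrd2 lie above all controls, and single hearts stand apart for Ankrd2 (T5R10 stressed, -0.08) and Xirp1 (T10R1 control, 4.52).

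The longer exposure with 1 day of rest (T10R1) used other mice and another slide. The genes were chosen with results of all 4 conditions known, so the p values given for T10R1 and for the difference between T10R42 and T10R1 are those of the fit and not independent evidence. Acta1 rose in T10R1 and passed the threshold, while no other member did. Its level was 6.08, 6.32, 6.14 and 4.99 in stressed hearts, against 4.45, 4.52, 4.85 and 4.18 in controls. All 4 stressed hearts were above all 4 controls, with stressed replicate 4 close to them. The change was 1.38 ± 0.28 (adjusted p = 0.0128, n = 4 per group in limma's fit), a 2.61-fold higher level and number 60 of all genes by size of increase. One of 8 members passed, where 1.13% of all genes did (0.774% higher). Without stressed replicate 1 the change was 1.32 and the adjusted p 0.0572, and in a fit of the 8 T10R1 arrays alone the adjusted p was 0.16.

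Ankrd2 and Xirp2 also did not overlap in T10R1, though neither passed. Ankrd2 stood at -2.26, -1.41, -2.33 and -1.75 in stressed hearts, against -3.13, -2.96, -2.87 and -2.79 in controls (change 1.00 ± 0.30, adjusted p = 0.104 in limma's fit). Xirp2 stood at 3.61, 3.76, 3.33 and 3.25 in stressed hearts, against 3.01, 3.12, 3.08 and 3.13 in controls (change 0.40 ± 0.17, adjusted p = 0.303). In all, 3 members were therefore higher without overlap, against 4.3% of all genes. Sprr1a was at -0.91, -1.84, -2.65 and -1.35 in stressed hearts, against -3.19, -2.62, -2.95 and -2.86 in controls (change 1.22 ± 0.56, adjusted p = 0.349). Stressed replicate 3 lay inside the control range, and the other 3 stressed hearts above it. With normexp the changes of Ankrd2 and Sprr1a were 0.48 and 0.65.

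Ankrd1 averaged 6.83 ± 0.47 in T10R1 stressed hearts and 6.44 ± 0.38 in T10R1 control hearts (SD, n = 4 each), a change of 0.39 ± 0.23 (adjusted p = 0.495 in limma's fit). Control replicate 3 was at 7.01 while the other controls lay between 6.22 and 6.29, and without it the change was 0.58 (adjusted p = 0.288). The same heart set the value for Xirp1, which was at 4.52 there and between 2.25 and 2.70 in the other controls. Xirp1 changed by -0.69 ± 0.28 (adjusted p = 0.287), and by -0.18 without that heart (adjusted p = 0.70). Stressed hearts had Xirp1 levels from 2.13 to 2.52. Csrp3 changed by -0.12 ± 0.10 and Nrap by 0.12 ± 0.13, each with overlapping groups. Over the 8 members the median change was 0.39, against 0.00 over all genes, and 4 were higher and 1 lower at an unadjusted p below 0.05, against 13.1% of all genes in either direction.

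After rest, no member passed the threshold in either condition by limma. In T5R10, where 0.0763% of all genes passed, 0 of 8 members did, and 0 had an unadjusted p below 0.05, against 14% of all genes. The largest changes were those of Sprr1a (0.54 ± 0.56), Ankrd2 (0.44 ± 0.30), Xirp2 (0.29 ± 0.17), Acta1 (0.28 ± 0.28) and Nrap (0.27 ± 0.13), and all 8 genes overlapped between the groups, where 5.84% of all genes did not. A single heart carried much of this. T5R10 stressed replicate 4 had an Ankrd2 level of -0.08, while the other stressed hearts lay between -2.38 and -1.90 and the controls between -2.32 and -1.86. The same heart was the highest of its group for Acta1, at 5.69 against 4.28, 4.59 and 4.96, and for Xirp2, at 3.55 against 2.65, 2.82 and 2.38. Without it the changes were -0.06 for Ankrd2, 0.01 for Acta1 and 0.06 for Xirp2, and the median of the members was 0.04 instead of 0.27. Leaving out instead the 3 arrays marked by the scanner software, all of T5R10 (control replicate 4 and stressed replicates 1 and 2), gave changes of 0.80 for Acta1, 1.03 for Ankrd2 (adjusted p = 0.0795 in limma's fit), 1.14 for Sprr1a, 0.41 for Xirp2 and 0.42 for Nrap, none past the threshold. Only stressed replicates 3 and 4 remained in that fit, so the heart with the high Ankrd2 level was 1 of 2 stressed hearts. Over all hearts of T5R10, Sprr1a was at -2.42, -2.25, -1.25 and -1.34 in stressed hearts, against -2.49, -2.49, -2.33 and -2.12 in controls, with stressed replicates 3 and 4 above all controls and the other 2 within their range.

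In T10R42, 0 of 8 members passed the threshold by limma, against 0.897% of all genes, and 0 had an unadjusted p below 0.05, against 18.8% of all genes. The median change of the members was -0.01, against -0.03 over all genes. Acta1 was at 5.39, 5.61, 5.26 and 5.32 in stressed hearts, against 6.25, 5.29, 5.46 and 5.33 in controls (change -0.18 ± 0.28). Ankrd2 lay lower, at -2.07, -2.32, -2.52 and -2.73 in stressed hearts, against -1.97, -1.99, -2.13 and -2.07 in controls (change -0.37 ± 0.30), and Sprr1a changed by -0.51 ± 0.56. Xirp2 (0.10 ± 0.17), Xirp1 (0.03 ± 0.28), Csrp3 (0.08 ± 0.10) and Nrap (-0.05 ± 0.13) had small estimates, and Ankrd1 changed by 0.30 ± 0.23. Groups overlapped for all 8 members, where 11.4% of all genes did not overlap.

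Whether the effect of 10 days of exposure differed between 42 days and 1 day of rest was tested directly, as the T10R42 change minus the T10R1 change. The stress effect on Acta1 was smaller after 42 days, by a difference of -1.56 ± 0.39 (adjusted p = 0.0294, n = 4 per group in limma's fit). Mean Acta1 was 5.88 in stressed and 4.50 in control hearts of T10R1, and 5.40 and 5.58 in those of T10R42. The controls thus differed more between the conditions than the stressed hearts did. Such differences of level cannot be told apart from the slide, so the result is not read as a fall in stressed hearts. Acta1 was 1 of 8 members past the threshold, against 4.12% of all genes (2.23% in this direction). The difference lost its call on leaving out any 1 of T10R1 control replicates 2 and 4, T10R1 stressed replicates 1 and 3, T10R42 control replicate 1 and T10R42 stressed replicate 3, with values from -1.57 to -1.34 and adjusted p from 0.0503 to 0.0629. Ankrd2 differed by -1.37 ± 0.42 (adjusted p = 0.0582) and Sprr1a by -1.73 ± 0.79 (adjusted p = 0.191). With normexp these 2 differences were -0.61 and -0.82. The remaining 5 had differences between -0.30 (Xirp2) and 0.71 (Xirp1) with adjusted p from 0.29 to 0.896, and that of Xirp1 was 0.21 without T10R1 control replicate 3 (adjusted p = 0.603).

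**Figure D2:**
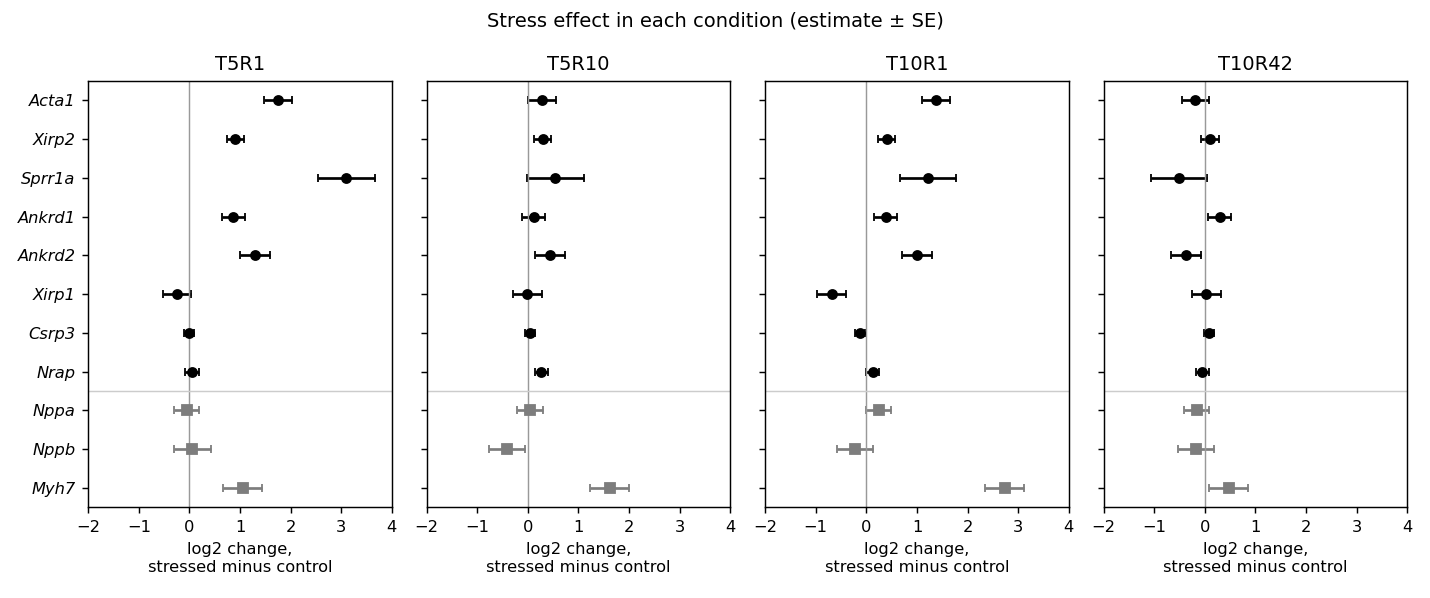
Change on the log2 scale, stressed minus control (x axis), in each condition with its SE as a bar, for the 8 genes in black and for Nppa, Nppb and Myh7 in grey. Sprr1a reaches 3.10 in T5R1 and lies below 0 in T10R42, Acta1 is at 1.74 and 1.38 in the conditions with 1 day of rest and at 0.28 and -0.18 in the others, and Myh7 is highest in T10R1, at 2.73.

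Ordered by group mean, Acta1 was highest in T5R1 stressed hearts (6.55 ± 0.32) and then T10R1 stressed hearts (5.88 ± 0.60, SD, n = 4 each), which differ by about 1 SD of the wider group. T10R42 control and stressed hearts followed at 5.58 ± 0.45 and 5.40 ± 0.15, and the other 4 groups lay between 4.88 and 4.50 with overlapping ranges. Sprr1a was highest in T5R1 stressed hearts, at 0.91 ± 2.02, followed by T10R1 stressed hearts at -1.69 ± 0.75 and T5R10 stressed hearts at -1.82 ± 0.61, which did not differ beyond their spread. T10R1 controls were lowest, at -2.91 ± 0.24. Xirp2 had the same top pair, 3.77 ± 0.30 in T5R1 stressed and 3.49 ± 0.24 in T10R1 stressed hearts, which lay apart by less than the wider SD. Csrp3 had a range of group means of only 0.51 and Nrap of 0.49. The lowest mean of Csrp3 was that of T10R1 stressed hearts, and the lowest of Nrap that of T5R1 control hearts. Differences of level between conditions cannot be told apart from the slide.

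The classical load markers did not move as one with Acta1. Nppa, which encodes atrial natriuretic peptide, changed by -0.05 in T5R1, 0.04 in T5R10, 0.25 in T10R1 and -0.16 in T10R42, with adjusted p from 0.727 to 0.952. It is also an atrial marker, and of the 11 atrial markers 0 were measured higher in T5R1 (median change -0.74). The part of atrial tissue in the values of Nppa was not tested. Nppb, which encodes the B-type peptide, changed by 0.06, -0.41, -0.22 and -0.17 in the same order, with adjusted p from 0.636 to 0.932. Myh7, the slow myosin heavy chain of the fetal mouse ventricle, was at 5.52 to 7.08 in T5R1 stressed hearts, against 5.13 to 5.61 in T5R1 controls (change 1.05 ± 0.39, adjusted p = 0.0681). It was at 6.24 to 8.0 in T10R1 stressed hearts, against 4.52 to 4.84 in T10R1 controls, and rose by 2.73 ± 0.39 (adjusted p = 0.000382). In T5R10 its change was 1.62 ± 0.39 (adjusted p = 0.0814), while in T10R42 it was 0.47 ± 0.39 (adjusted p = 0.54).

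Related genes were described by 7 lists, written with earlier results of these hearts known. In T5R1, 13.7% of all genes passed the threshold, 1458 higher (5.3%) and 2320 lower (8.43%), and under quantile normalisation the split was 1918 higher and 1103 lower. Z-disc and titin partners had 1 of 28 tested genes higher and 4 lower (median change -0.03). Fhl1, a LIM protein that binds titin, rose by 0.78 ± 0.21. The M-band protein Myom2 fell by 0.69 ± 0.10, the co-chaperone Bag3, which clears damaged Z-disc proteins, fell by 0.49 ± 0.12, and the ubiquitin ligase Trim54 fell by 0.44 ± 0.10. In the intercalated disc list 0 of 15 rose and 3 fell (median -0.12). The desmosomal cadherins Dsg2 and Dsc2 fell by 0.52 ± 0.11 and 0.44 ± 0.12, and the alpha-catenin Ctnna3 fell by 0.43 ± 0.13. Most partners of the members at these structures did not pass. Over all genes, too, more passed lower than higher, and this reversed under quantile normalisation. The direction is therefore not read as particular to these lists.

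Genes set in motion by SRF and its cofactors had 3 of 21 higher and 1 lower (median 0.07). Fhl1, which is on this list too, the tropomyosin Tpm4 (0.46 ± 0.12) and the calponin Cnn2 (0.44 ± 0.13) rose, and Myocd, the muscle cofactor of SRF itself, fell by 0.32 ± 0.10. Of 18 YAP and TEAD factors and targets, the receptor kinase Axl rose by 0.36 ± 0.11 and Amotl2, an inhibitor of YAP that is also its target, fell by 0.53 ± 0.10 (median 0.07). Fetal and load-induced genes had 4 of 20 higher and 2 lower (median 0.17). Uck2, a kinase of uridine and cytidine, rose by 1.15 ± 0.19, the actin regulator Enah by 0.70 ± 0.14 and the phosphofructokinase Pfkp by 0.60 ± 0.12, while the slow troponin Tnni1 fell by 0.63 ± 0.16.

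The interleukin-6 family list, with its receptors and STAT3 targets, had 2 of 23 higher and 1 lower (median -0.12). Timp1, an inhibitor of matrix proteases, rose by 2.80 ± 0.32 and the metallothionein Mt2 by 1.05 ± 0.35, and the receptor Il11ra1 fell by 0.36 ± 0.11. Small proline-rich and other injury-induced genes had 6 of 12 higher and 1 lower (median 0.15). Named by size of change, the calcium-binding S100a11 (0.80 ± 0.15) and S100a6 (0.55 ± 0.12) and the annexins Anxa1 (0.62 ± 0.12) and Anxa2 (0.49 ± 0.11) rose. The medians of the lists stood between -0.12 and 0.17, against -0.12 over all genes. Without T5R1 stressed replicate 1, the heart with most Sprr1a, 16 list genes passed instead of 29.

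The other conditions had few such genes, and few of all genes passed there. The shares of all genes past the threshold were 1.13% in T10R1, 0.0763% in T5R10 and 0.897% in T10R42. At an unadjusted limma p below 0.05 the shares were 13.1%, 14% and 18.8% in the same order. In T10R1, 0 of 28 Z-disc partners, 0 of 15 intercalated disc genes, 0 of 21 SRF genes, 0 of 18 YAP genes and 0 of 23 interleukin-6 family genes passed by limma, with 3, 2, 3, 2 and 5 genes below 0.05 before adjustment. The fetal list had 1 of 20 higher, Myh7, and 1 lower, the slow troponin Tnnt1, which fell by 0.39 ± 0.10. In the injury list the matrix protein Ecm1 rose by 0.66 ± 0.10 (adjusted p = 0.000665), with levels between 5.02 and 5.20 in stressed hearts, against 4.34 to 4.53 in controls. In T5R10, 0 of 129 genes on the 7 lists passed by limma (15 at an unadjusted p below 0.05). The smallest adjusted p was that of Wwtr1, a relative of YAP (0.35 ± 0.08, adjusted p = 0.0716). In T10R42 the titin-binding Myom1 alone rose, by 0.25 ± 0.06 (adjusted p = 0.0406, 12 genes at an unadjusted p below 0.05). On leaving out any 1 of the 8 hearts of T10R42 other than stressed replicate 2, 0 list genes passed there, and 3 without that heart.

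**Figure D3:**
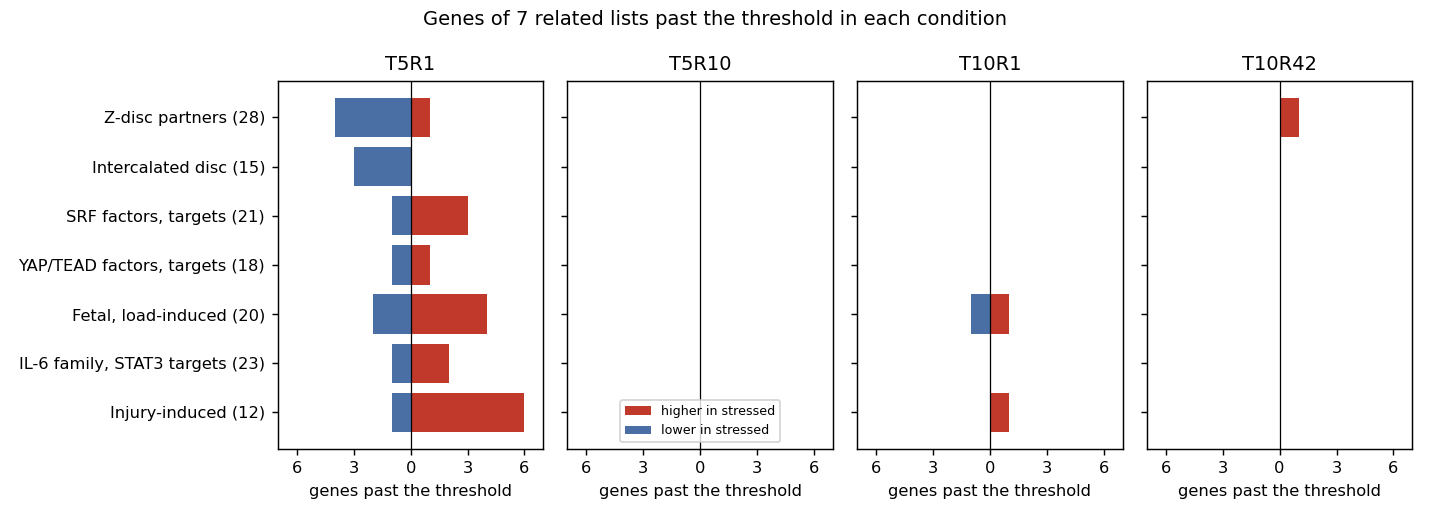
Number of genes past the threshold (x axis) in each of 7 lists, higher in stressed hearts in red to the right and lower in blue to the left, for the 4 conditions, with the number of genes tested in brackets. T5R1 holds most of them, up to 6 of 12 in the injury list, while T5R10 has 0 and T10R42 has 1.

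Markers of other cells moved in the same conditions. Activated fibroblast markers rose in 9 of 9 tested genes in T5R1 (median 2.78) and in 7 of 9 in T10R1 (median 2.05). Their mean level was 4.35, 2.92, 2.06 and 2.25 in T5R1 stressed hearts, against -0.06 to 0.24 in T5R1 controls, and the hearts with more of it, replicates 1 and 2, were also those with most Sprr1a. In T10R1 it was 2.97, 1.79, 1.37 and 3.04 in stressed hearts, against 0.02 to 0.53 in controls. There, stressed replicate 4 was the highest for these markers and the lowest of its group for Acta1, Xirp1, Xirp2, Csrp3 and Nrap. For Ankrd1 and Ankrd2 it was neither highest nor lowest. Sprr1a, at -0.91, -1.84, -2.65 and -1.35 in these hearts, was highest in replicates 1 and 4 and lowest in replicate 3, as the markers were. Macrophage markers rose in 7 of 10 genes in T5R1 and 2 of 10 in T10R1, and markers of dividing cells in 8 of 9 and 1 of 9. Of all genes, 5.3% passed higher in T5R1 and 0.774% in T10R1. The part of these cells in the members' changes was not tested, and in whole tissue fewer cells of a type and less RNA per cell cannot be told apart.

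Markers of heart muscle were above background on every array for 12 of 12 genes. For the counts below, 5.3% of all genes passed higher and 8.43% lower in T5R1, and 0.774% higher and 0.36% lower in T10R1. In T5R1 their mean level was 8.38 to 8.68 in stressed hearts, against 8.72 to 8.75 in controls. Of the 12, 1 passed, Tnni3, which was lower. At an unadjusted limma p below 0.05, 7 of 12 were lower and 0 higher, against 29.5% of all genes in either direction. In T10R1 it was 8.44 to 8.58 in stressed hearts, against 8.59 to 8.73 in controls. By limma 0 of 12 passed (3 at an unadjusted p below 0.05, all lower, against 13.1% of all genes in either direction). The part of this in the members' changes was not tested. Atrial markers had 2 of 11 lower in T5R1 (median -0.74), with a mean level of 1.62 to 2.60 in stressed hearts, against 2.55 to 3.12 in controls, and in T10R1 stressed replicate 4 had the lowest mean, at 1.39. Their part in the result was not tested. Skeletal muscle, where Acta1, Ankrd2 and Nrap are also made, had 12 of 19 markers above background on all 32 arrays, with a mean level of -0.17 to 0.11 in T5R1 stressed hearts, against 0.04 to 0.15 in controls. In T10R1 it was -0.53 to -0.29 in stressed hearts, against -0.47 to -0.38 in controls. The fast skeletal myosins Myh2, Myh1 and Myh4 were above background on 0, 1 and 12 of 32 arrays. Of 15 tested skeletal genes, 1 was higher in T5R1 (Mybpc2) and 3 lower (Tnnc2, Actn3, Cacna1s), and 1 was higher and 1 lower in T10R1 (Mybpc2, Cacna1s). Of 16 epidermal markers, 8 were above background on all 32 arrays, while Sprr1b, Sprr3 and Flg were so on 0 of 32, and of 9 tested epidermal markers 0 were higher in T5R1 and 1 lower (Krt16). Smooth muscle markers had 1 of 10 lower in T5R1 (Mylk).

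Hearts of one group also differed from each other, and these differences were not used to choose the genes. For each gene the deviation of each of the 32 hearts from its group mean was taken, and the 28 pairs of members were correlated, with p from 100000 permutations of hearts within groups (two-sided, adjusted over the 28 pairs). Csrp3 and Nrap deviated together, with Pearson's r = 0.66 and Spearman's rho = 0.73 (permutation p = 7e-05, adjusted 0.00196, and for rho p = 9e-05, adjusted 0.00252). Within the slides r was 0.59 in T5R1, 0.81 in T5R10, 0.89 in T10R1 and 0.77 in T10R42. It was 0.67 without the 2 hearts farthest from the median of Csrp3, 0.48 under quantile normalisation and 0.6 with the authors' deposited values. This rests on the brighter of 2 Nrap probes, with which the other correlated at 0.07 over the 32 hearts. Neither gene passed the threshold for stress in T5R10, T10R1 or T10R42.

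A further 3 pairs passed by both r and rho, all with Xirp1. The 2 hearts left out were those farthest from the median of Acta1 in each pair that holds Acta1. They were farthest for Xirp1 in its pairs with Ankrd1 and Nrap, and for Xirp2 in its pair with Ankrd2. With Acta1, r was 0.45 and rho 0.56 (permutation p = 0.00189 and 0.00221, adjusted 0.0261 and 0.0309), with r from 0.37 to 0.68 within the slides and 0.52 without 2 hearts. With Ankrd1, r was 0.55 and rho 0.53 (permutation p = 0.00459 and 0.0066, adjusted 0.0321 and 0.037), with r from 0.31 to 0.73 within the slides and 0.45 without 2 hearts. With Nrap, r was 0.32 and rho 0.46 (permutation p = 0.0028 and 0.00964, adjusted 0.0261 and 0.045), with r from 0.22 to 0.64 within the slides and 0.46 without 2 hearts. These 3 calls were lost without T10R1 control replicate 3, although r then rose with Acta1 and Nrap and fell only with Ankrd1. Without that heart r was 0.54, 0.42 and 0.52 and the adjusted permutation p 0.0823, 0.125 and 0.0613, in a computation chosen after the values were seen. Csrp3 and Nrap kept r = 0.66 there (adjusted permutation p = 0.00168). In all, 25 of 28 pairs had a positive r, with a median of 0.31. No such share for pairs of other genes is given here, so the count is not read as particular to the members.

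Among the 5 genes that were higher in T5R1, no pair passed by r, and Acta1 and Ankrd1 passed by rho. They had r = 0.49 and rho = 0.54 (permutation p = 0.0171 and 0.00484, adjusted 0.0797 and 0.0339), with r from 0.35 to 0.66 within the slides and 0.57 without 2 hearts. Acta1 and Nrap also passed by rho alone, with r = 0.42 and rho = 0.54 (permutation p = 0.0161 and 0.00443, adjusted 0.0797 and 0.0339), r from 0.37 to 0.76 within the slides and 0.35 without 2 hearts. Acta1 and Xirp2 had r = 0.49 and rho = 0.37 (permutation p = 0.0533 and 0.0768, adjusted 0.166 and 0.215), with r from -0.40 to 0.73 within the slides and 0.26 without 2 hearts. Xirp2 and Ankrd2 had r = 0.61 and rho = 0.30 (permutation p = 0.0774 and 0.174, adjusted 0.204 and 0.444), with r = 0.28 without 2 hearts, among them the T5R10 heart described above. Acta1 and Sprr1a had r = 0.08 and rho = 0.20 (permutation p = 0.698 and 0.346, adjusted 0.886 and 0.57), with r = 0.09 without 2 hearts.

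**Figure D4:**
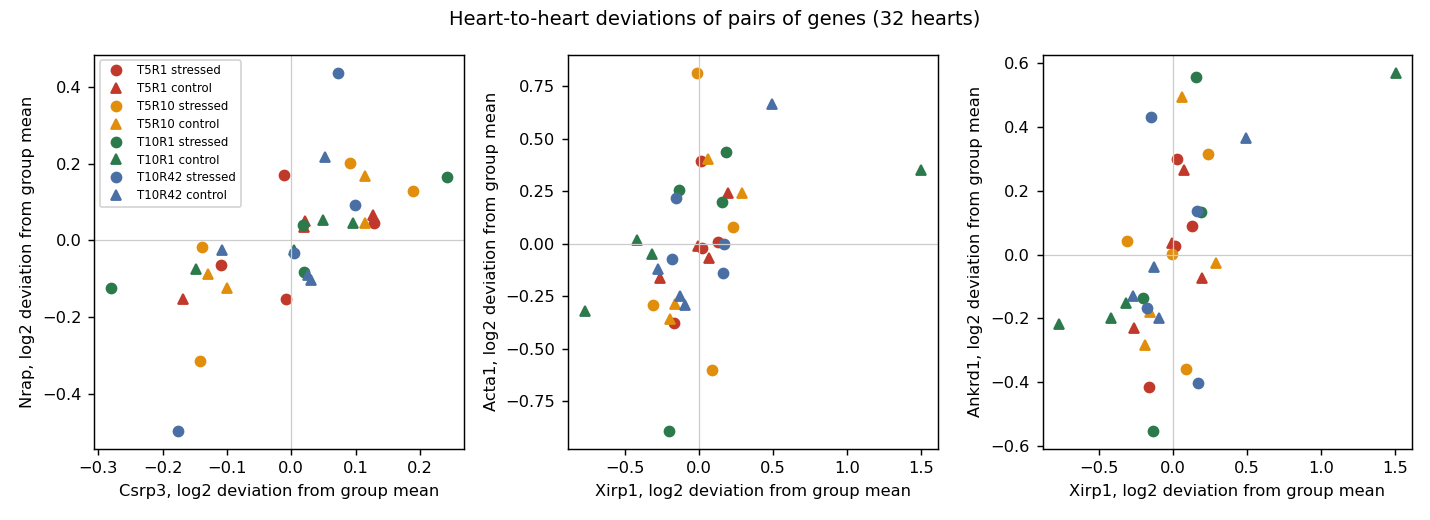
Log2 deviation of each heart from the mean of its own group, for Nrap against Csrp3, Acta1 against Xirp1 and Ankrd1 against Xirp1 (y against x axis), with circles for stressed and triangles for control hearts and a colour for each condition. Csrp3 and Nrap spread along a line in all conditions (r = 0.66), while the green triangle far to the right is T10R1 control replicate 3.

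Likeness of other genes to each member was taken as Pearson's r over the 32 hearts after the mean of each slide was removed, which keeps the difference between stressed and control hearts. It is a description, since the hearts share that difference and their slides. Among the genes most like Acta1 were Cdca8, Cdc20 (both of cell division), the matrix protein Fbln2 and the receptor Tnfrsf23, with r from 0.82 to 0.85. Sprr1a was most like Ddah1 (0.95), Serinc2 (0.94), Pfkp, the collagen crosslinking enzyme Lox and Serpinb1a (0.92 each), and 5.82% of all genes had r above 0.5 with it. These values include T5R1 stressed replicate 1, far above all other hearts for Sprr1a at 3.77, and r without that heart was not computed. Among those most like Xirp2 were Uck2 (0.84), Polr3g, Plat (0.82 each) and Sulf1 (0.81). Ankrd1 was most like the activin subunit Inhba (0.80), Stmn1 and Enah, and Ankrd2 like Fbln2, Atp6v0a4 and the lipocalin Lcn2 (0.80 each).

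The 3 members that were not higher in T5R1 had other neighbours. Among the genes most like Csrp3 were Prmt1 and Mlf1 (0.75 each), and Nrap was most like Dpagt1 (0.76), Exoc6b and Eif2b4 (0.73 each). Xirp1 was most like Gadd45g (0.92), Arc (0.90) and Abra (0.89), genes of rapid response, Abra encoding an activator of SRF signalling in striated muscle. Without T10R1 control replicate 3 these values were 0.66, 0.58 and 0.56. In that control heart Gadd45g was at 6.63, against 3.36 to 4.05 in the other 3 controls, Arc at 2.49 against -1.67 to -1.19, and Abra at 3.91 against 0.96 to 1.25. In the 4 stressed hearts of T10R1, Gadd45g was at 3.21 to 3.62, Arc at -1.70 to -1.05 and Abra at 0.52 to 0.78. Members were also like each other, with r = 0.78 between Acta1 and Xirp2, 0.79 between Xirp2 and Ankrd2 and -0.11 between Acta1 and Xirp1.

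The remaining probes lie, on mm9, at chr2:67363961-67364020 (plus strand) for Xirp2, chr3:92287955-92288014 (minus) for Sprr1a, chr19:36186809-36186868 (minus) for Ankrd1, chr19:42118566-42118625 (plus) for Ankrd2 and chr9:119923389-119923448 (minus) for Xirp1. The Csrp3 probe runs from chr7:56086063-56087977 (minus), a span longer than a probe. For Nrap the brighter probe, at chr19:56394493-56394500 (minus), was used. The other Nrap probe, at chr19:56409762-56409821, changed by -0.11, 0.35, 0.20 and 0.05 in T5R1, T5R10, T10R1 and T10R42, so the heart-to-heart values of Nrap belong to the one probe.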

How the data were processed

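Heart RNA of 32 mice was measured on 1-colour arrays, 4 mice in each of 8 groups. Spot intensity values were deposited as Agilent Feature Extraction gave them, detrended and background-subtracted, per the file headers. The other deposited values used were flags of 0 or 1 for each spot. The authors' deposited table holds log2 values, which matched quantile-normalised log2 mean signals and were used as an alternative. Outlier spots (5470) were left out. Probes well above background on at least 3 arrays of a group were kept (38824), genes were read by their brightest probe, and 54 missing values were left out of the fit. The arrays had 28792 to 40672 probes well above background, and array number limits the precision. limma 3.58.1 in R 4.3.3 fitted a mean per group over the 27532 genes, two-sided, with 24 residual degrees of freedom. The code was tested on simulated data. Other scalings, filters, blocks, weights and left-out hearts were tried. The members and lists were chosen with earlier results of these data known. Named genes were the members, Nppa, Nppb, Myh7, up to 4 called genes of each list and condition (or the smallest p), and the 3 or 5 genes most like each member. Some of the named genes are not reported here.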

Additional observations from a re-analysis of the deposited data

Results flagged for a closer look

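Of 64 groups of 4 hearts tested for a heart far from the other 3, 2 were past the critical value of Dixon's test, and chance gives about 1 in 20. Ankrd1 was at 7.01 in T10R1 control replicate 3, against 6.22 to 6.29 in the other controls. Nrap was at 5.42 in T5R1 control replicate 4, against 5.61 to 5.64 in the other controls. The stress effect on Acta1 differed between T10R42 and T10R1 by -1.56 in limma's test of the difference.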

How the results depend on the processing

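T5R1 members had a median change of 0.80 to 1.03 on leaving out single hearts. In T5R10 and T10R42, 0 members passed in the main analysis and in all 19 alternatives each. In T10R1, 1 member passed, 2 with array weights, 0 with the condition's arrays alone, and 0 to 1 without single hearts. For the difference between T10R42 and T10R1, 1 member passed, and 2 (with Ankrd2) with probes above background on all arrays, array weights, the 2 conditions alone or without the 3 arrays marked by the scanner software, and 0 to 1 without single hearts. Genes of the lists past the threshold numbered 29 in T5R1 (17 with the condition alone, 16 to 30 without single hearts), 0 in T5R10 (2 with normexp, 5 without the marked arrays, 0 to 3 without single hearts), 3 in T10R1 (9 with array weights, 0 alone, 2 to 4 without single hearts) and 1 in T10R42 (6 with array weights, 0 with the authors' table, no filter, the replicate block, slide row or the condition alone, and 0 to 3 without single hearts). Pairs past the threshold numbered 4, 6 by Spearman's rho, 5 without the 2 farthest hearts, 3 with the authors' table, 1 under quantile normalisation and 1 without T10R1 control replicate 3. The replicate block left the members' counts at 0 in T5R10, 1 in T10R1, 0 in T10R42 and 1 for the difference. Same-numbered hearts correlated at -0.266 to 0.214, so the numbers are not shown to pair animals. Over all genes, calls ranged from 2177 to 5517 in T5R1 (3778 as reported), 0 to 1088 in T5R10 (21), 4 to 1037 in T10R1 (312), 0 to 2341 in T10R42 (247) and 305 to 4070 for the difference (1135). The cause was not tested. For single members in the 3 tested conditions and the difference, 635 of 672 alternative values kept direction and side of the threshold, 8 lost a call (all Acta1), 5 gained one and 24 changed sign, none of these past the threshold in either analysis. Sign changes for Xirp1 in T10R42 (0.03 as reported) were to -0.0194 with quantile normalisation, -0.0294 with normexp and -0.0312 with the authors' table, and in T5R10 (-0.01) to 0.195 without the marked arrays. For Csrp3 the authors' table gave 0.0047 in T10R1, -0.0001 in T10R42 and -0.0048 for the difference, and the mean of probes gave 0.003 for Nrap in T10R42. Leaving out single hearts gave, in T5R10, -0.0915 to 0.0909 for Xirp1, -0.0605 to 0.707 for Ankrd2 and -0.0153 to 0.095 for Csrp3, in T10R42, -0.281 to 0.0378 for Acta1, -0.0637 to 0.192 for Xirp1 and -0.192 to 0.12 for Nrap, and for the difference -0.277 to 0.0981 for Ankrd1. In T5R1, which has no test, 147 of 152 values moved within the spread and 5 further.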
